A study of Homo sapiens with 6 samples.

Results

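Of the 58735 genes in the deposited count table, 71 were protein-coding genes whose symbols begin with HIST1H, HIST2H, HIST3H or HIST4H, and these clustered core and linker histone genes were examined here. Membership was set by symbol and biotype alone, without use of any measured value. The choice of histone genes as the subject was made with earlier results of these data known. The HIST1 cluster on chromosome 6 held 55 of them, HIST2 on chromosome 1 held 12, HIST3 on chromosome 1 held 3 and HIST4 on chromosome 12 held 1. By type, 6 encoded linker histone H1, 17 encoded H2A, 18 encoded H2B, 15 encoded H3 and 15 encoded H4.

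RNA was sequenced from H2452, an established human pleural mesothelioma (PM) cell line, with 3 libraries carrying a scrambled sgRNA (sgCtrl, labelled WT) and 3 carrying an sgRNA against *NF2* (sgNF2-1, labelled NF2-KO). *NF2* encodes merlin, a tumor suppressor that acts upstream of the Hippo kinases. Both groups carried Cas9 and mCherry from a lentiviral vector in which the U6 promoter drives the sgRNA and the SFFV promoter drives Cas9, were sorted for mCherry, and were grown in RPMI-1640 with serum and penicillin/streptomycin. They were sorted populations rather than clones. A second *NF2* sgRNA was not analysed here, so these values rest on 1 guide.

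Core histones H2A, H2B, H3 and H4 form the nucleosome around which DNA is wrapped, and H1 binds the linker DNA between nucleosomes. Most genes of the clusters are replication-dependent. They are transcribed mainly in S phase at histone locus bodies organized by NPAT, usually lack introns, and yield mRNAs that end a few bases after a conserved stem-loop bound by SLBP instead of in a poly(A) tail. Some can also be cleaved at a downstream poly(A) signal. Library selection therefore governs which histone transcripts are captured: poly(A) selection keeps mainly the polyadenylated forms, while depletion of ribosomal RNA keeps both. The labels and methods name a NEBNext Ultra RNA library kit but no selection step, so every level and change below refers to captured transcripts.

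The stem-loop is shown because it is the element that distinguishes these mRNAs from others. A 16-base match to the histone stem-loop was found in a GENCODE release 29 transcript of 32 of the 71 genes, against 3.03% of 19684 protein-coding genes. The 6 forms found are given below, with the 4 loop bases in capitals and 6 bases of stem on either side.
Form in HIST1H2AC, HIST3H2A, HIST2H2BE and the other genes of a group of 17: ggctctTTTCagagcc
Form in 5 H4 genes, among them HIST1H4H and HIST4H4: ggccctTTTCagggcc
Form in HIST1H2BD, HIST1H2BC, HIST1H3G, HIST1H2BF and HIST3H3: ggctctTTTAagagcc
Form in HIST1H4I, HIST2H4A and HIST2H4B: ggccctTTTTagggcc
Form in HIST1H3E: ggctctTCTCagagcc
Form in HIST1H2AG: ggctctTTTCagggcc
Both forms that begin with ggccct were found in H4 genes, and those that begin with ggctct in H2A, H2B and H3 genes.

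Total counts ranged from 14782423 to 17416463 per library. Between libraries of the same group, counts varied beyond sampling noise (chi-square per degree of freedom 4.85 to 11.5), and the variation was larger across groups (36.2 to 47.2). The study's methods call replicates biological in general, without saying how the cultures behind these libraries were separated, so p-values measure only the spread between these samples, which may be partly technical. *NF2* itself averaged 71.4 ± 3.36 CPM in sgCtrl against 44.2 ± 6.77 CPM in sgNF2-1 (SD, n = 3), where CPM is the count relative to the TMM-scaled library total. Its log2 fold change was -0.69 (SE 0.10, adjusted p = 7.9e-06, edgeR). Of 10 mesothelial markers, 9 were tested, including *KRT8*, *KRT18*, *KRT7*, *KRT19*, *MSLN* and *WT1*. At an adjusted p under 0.05, 3 of the 9 were higher and 3 lower in sgNF2-1. Over all tested genes, 17.7% were higher and 16.6% lower. The log2 fold changes were 1.20 for *KRT7*, 0.66 for *MSLN* and 0.28 for *KRT18*, and -1.28 for *PDPN*, -1.04 for *WT1* and -0.94 for *KRT19*. The summed mesothelial level overlapped between the groups, at 3480 to 3925 CPM in sgCtrl and 3372 to 4132 CPM in sgNF2-1. Most of this sum came from *KRT8* and *KRT18*, with means of 1961 and 797 CPM in sgCtrl, so it says little of the other markers. The summed level of 4 leukocyte markers was at most 0.317 CPM in any library. The summed level of 3 endothelial markers lay between 6.19 and 8.53 CPM in sgCtrl and between 1.93 and 3.24 CPM in sgNF2-1. Of the 2 tested, *PECAM1* fell (6.31 against 1.296 CPM), while *CDH5* did not pass the threshold (0.898 against 1.18 CPM). *VWF* was too low to test (0.107 against 0.0189 CPM). The part of the marker changes in the histone results was not tested.

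Summed counts of the 71 genes were 3275, 3576 and 3740 with sgCtrl, and 2520, 2156 and 2148 with sgNF2-1. Relative to the TMM-scaled totals this was 224.0 ± 20.1 against 144.6 ± 5.70 CPM (SD, n = 3), and every sgNF2-1 library lay below every sgCtrl library. In bulk RNA, fewer cells in S phase, less histone mRNA per cell and a smaller captured share of that mRNA cannot be told apart. A few genes carried most of these counts: *HIST1H2BK*, *HIST1H2AC*, *HIST1H1C* and *HIST1H4I* held 67.4% of them. At the other end, 14 genes had no count in any library, where a count of 0 allows up to 3 counts per library. Among them, *HIST1H3D*, *HIST1H2AK*, *HIST2H3PS2*, *HIST1H2AD* and *HIST1H2AM* have 88.0% to 100% of their exon bases overlapped by other genes. How reads in overlapping genes were counted is not given, so that limit need not hold for these genes.

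Only 20 of the 71 genes passed edgeR's expression filter and could be tested. They comprised 17 HIST1, 1 HIST2 and 2 HIST3 genes. The other 51 held 3.04% of the counts, which summed to 100, 110 and 110 with sgCtrl, and to 93, 47 and 70 with sgNF2-1, and none exceeded 20 counts in a library. The largest of them in total was the single HIST4 gene, *HIST4H4*, with 20, 17 and 6 counts in sgCtrl and 10, 5 and 0 in sgNF2-1. Its groups overlapped.

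Among the 20 tested genes, 12 were lower in sgNF2-1, 1 was higher and 7 did not pass an adjusted p of 0.05. Over all 14179 tested genes, 16.6% were called lower and 17.7% higher. The median log2 fold change of the 20 was -0.84, beside a median of 0.00 over all tested genes, and 17 of the 20 lay below zero. The filter admits a gene that reaches the minimum in 1 group only, so these figures describe the tested genes and not the 71. There were 14 genes with at least 10 counts in every library, and a fit on genes with that minimum called 11 of them lower and 1 higher. At the limits of the study's methods, a log2 fold change of at least 0.5 in size and p under 0.05 before adjustment, 13 histone genes were lower and 1 higher, beside 10.8% and 9.22% of all tested genes. In 14 of the 20, every sgNF2-1 library lay below every sgCtrl library, and in 1 every sgNF2-1 library lay above. The shares of all tested genes without overlap were 22.2% in the lower and 23.2% in the higher direction.

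**Figure D1:**
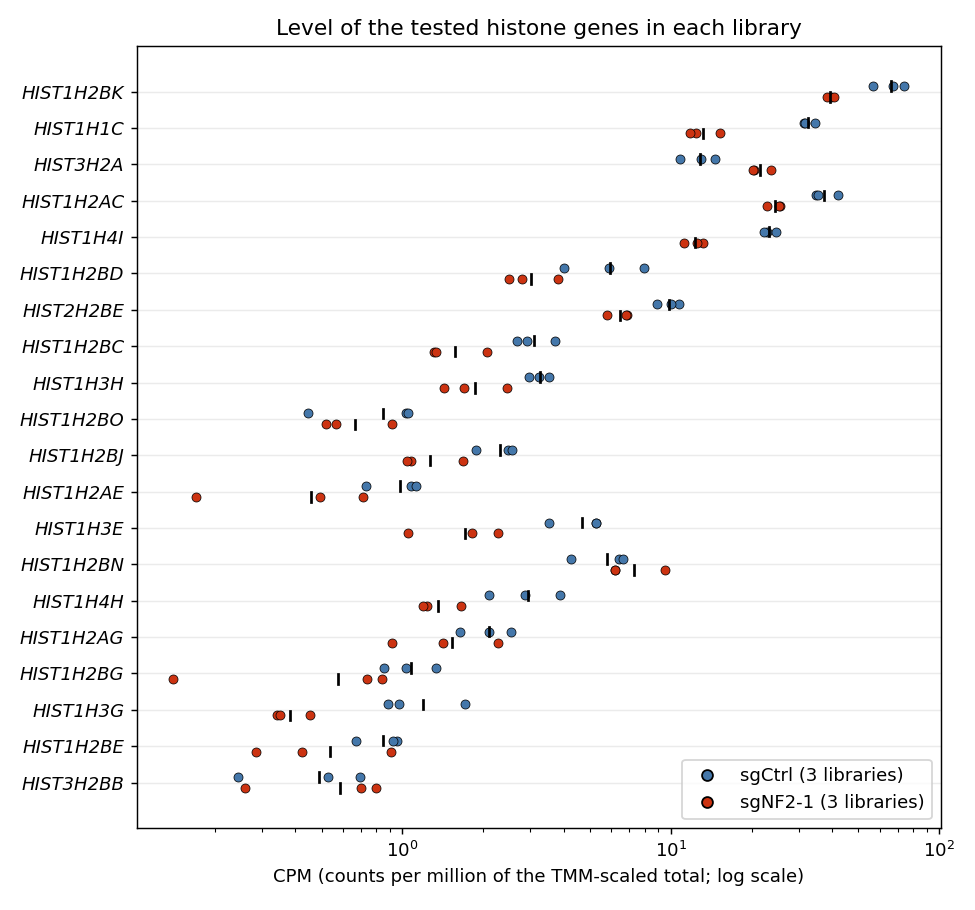
Level of each of the 20 tested histone genes in each library, as CPM on a log axis, ordered by mean FPKM over the 6 libraries. Points are the 3 sgCtrl and 3 sgNF2-1 libraries and short vertical bars are group means. The sgNF2-1 points lie left of all sgCtrl points in 14 genes and right of them only in *HIST3H2A*.

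The linker histone genes were represented by 1 tested member. *HIST1H1C* (ENSG00000187837, chromosome 6, 26055787 to 26056428, hg38), which encodes an H1 subtype that binds linker DNA, had 31.3, 31.6 and 34.5 CPM in sgCtrl and 12.4, 11.8 and 15.3 CPM in sgNF2-1. The groups were far apart, and the highest sgNF2-1 library was below the lowest sgCtrl library. The mean level in sgNF2-1 was 40.5% of that in sgCtrl, a log2 fold change of -1.31 (SE 0.12, adjusted p = 8.4e-09, edgeR). The remaining 5 H1 genes were not tested, and 1 of them had no count at all. *HIST1H1E* had 7, 6 and 1 counts in sgCtrl and 8, 5 and 11 in sgNF2-1. *HIST1H1B* had 8, 0 and 7 counts in sgCtrl and 2, 5 and 4 in sgNF2-1. Neither pair of groups was separated.

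Among the H2A genes, 4 of 17 were tested, of which 1 fell and 1 rose, beside 16.6% and 17.7% of all tested genes. *HIST1H2AC* (ENSG00000180573, chromosome 6, 26124145 to 26139116) had 34.8, 35.3 and 41.8 CPM in sgCtrl and 22.9, 25.5 and 25.3 CPM in sgNF2-1. All sgNF2-1 libraries were below all sgCtrl libraries, with a log2 fold change of -0.60 (SE 0.11, adjusted p = 0.00012, edgeR). *HIST3H2A* (ENSG00000181218, chromosome 1, 228456979 to 228457873) went the other way. It had 12.9, 10.8 and 14.6 CPM in sgCtrl and 20.3, 20.2 and 23.7 CPM in sgNF2-1. The groups did not overlap, and the mean in sgNF2-1 was 1.67-fold that in sgCtrl, a log2 fold change of 0.74 (SE 0.13, adjusted p = 0.00010, edgeR). It was the only histone gene of the 71 called higher, and the call held in all 15 alternatives in which it was refitted. *HIST1H2AG* (log2 fold change -0.44) and *HIST1H2AE* (log2 fold change -1.11) did not pass the threshold, with adjusted p of 0.36 and 0.093 in edgeR.

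Among the H2B genes, 10 of 18 were tested, more than of any other type. Of these, 5 fell while none rose, beside 16.6% lower and 17.7% higher over all tested genes. *HIST1H2BK* (ENSG00000197903, chromosome 6, 27146418 to 27146798), the most abundant histone gene here, had 56.9, 67.1 and 74.1 CPM in sgCtrl and 39.4, 38.1 and 40.6 CPM in sgNF2-1. The groups did not overlap, and the sgCtrl libraries were the more widely spread. Its log2 fold change was -0.75 (SE 0.10, adjusted p = 2.3e-06, edgeR). Of its 100-base windows, 28.4% also occur in another gene, so part of its count is uncertain. *HIST1H2BD* (ENSG00000158373, chromosome 6, 26158146 to 26171349) had 4.00, 5.91 and 7.97 CPM in sgCtrl and 2.50, 2.79 and 3.79 CPM in sgNF2-1. The highest sgNF2-1 library came close to the lowest sgCtrl library without reaching it, and the log2 fold change was -0.98 (SE 0.25, adjusted p = 0.0032, edgeR).

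*HIST1H2BC* (ENSG00000180596, chromosome 6, 26114873 to 26123926) had 2.66, 2.92 and 3.69 CPM in sgCtrl and 1.31, 2.07 and 1.33 CPM in sgNF2-1. The groups were separate, with a log2 fold change of -0.97 (SE 0.30, adjusted p = 0.013, edgeR), but the adjusted p was 0.059 without sgCtrl replicate 3, 0.064 without sgNF2-1 replicate 1 and 0.0504 without sgNF2-1 replicate 3. *HIST1H2BJ*, the called gene nearest the threshold, had a log2 fold change of -0.87 (SE 0.34, adjusted p = 0.047, edgeR), and its adjusted p lay between 0.052 and 0.147 without any 1 of the sgCtrl replicates or without sgNF2-1 replicate 1 or 2. *HIST1H2BO* (ENSG00000274641, chromosome 6, 27893463 to 27893843) had 0.444, 1.04 and 1.05 CPM in sgCtrl and 0.568, 0.518 and 0.913 CPM in sgNF2-1. These groups overlapped (log2 fold change -0.35, SE 0.47, adjusted p = 0.60, edgeR). *HIST1H2BN* was the 1 tested HIST1 gene with a positive log2 fold change, 0.35 (SE 0.21, adjusted p = 0.20, edgeR). Its exons overlap *HIST1H2AK* and *HIST1H2AL* over 7.25% of their bases, and since the strand setting of the counting is not given, reads there cannot be assigned with certainty. The same holds for *HIST1H2BE* (log2 fold change -0.66, adjusted p = 0.32, edgeR), of which 28.2% is overlapped on the opposite strand. *HIST1H2BG* did not pass the threshold either (log2 fold change -0.87, adjusted p = 0.18, edgeR).

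Outside chromosome 6, H2B was represented by a pair of tested genes. *HIST2H2BE* (ENSG00000184678, chromosome 1, 149884459 to 149886652) had 8.88, 10.7 and 10.0 CPM in sgCtrl and 5.80, 6.87 and 6.81 CPM in sgNF2-1. All sgNF2-1 values lay below all sgCtrl values, as in the HIST1 genes called lower, and the log2 fold change was -0.61 (SE 0.16, adjusted p = 0.0048, edgeR). *HIST3H2BB* (ENSG00000196890, chromosome 1, 228458107 to 228460470) had 11, 4 and 8 counts with sgCtrl against 14, 4 and 10 with sgNF2-1. The groups overlapped almost fully, with a log2 fold change of 0.27 (SE 0.55, adjusted p = 0.74, edgeR), and the sign turned when sgCtrl replicate 2 (-0.058) or sgNF2-1 replicate 1 (-0.033) was left out.

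All 3 tested H3 genes of 15 fell, each from a low level, beside 16.6% of all tested genes called lower. *HIST1H3E* (ENSG00000274750, chromosome 6, 26224199 to 26227473) had 5.27, 3.53 and 5.27 CPM in sgCtrl and 1.82, 2.27 and 1.05 CPM in sgNF2-1. The groups were separate, with a log2 fold change of -1.44 (SE 0.28, adjusted p = 0.00029, edgeR). *HIST1H3G* (ENSG00000273983, chromosome 6, 26269405 to 26271815) had 14, 16 and 26 counts with sgCtrl against 6, 7 and 5 with sgNF2-1. Its log2 fold change was -1.62, on few counts and with a wide error (SE 0.48, adjusted p = 0.011, edgeR). The gene reached 10 counts in the sgCtrl libraries only, so it was tested through the group where it was high, and a fit on genes with 10 counts in every library does not include it. Left-out libraries also changed the call, since the adjusted p was 0.079 without sgCtrl replicate 3 and 0.052 without sgNF2-1 replicate 1. *HIST1H3H* (ENSG00000278828, chromosome 6, 27810064 to 27811300) had 3.24, 3.53 and 2.97 CPM in sgCtrl and 1.70, 1.43 and 2.46 CPM in sgNF2-1. Its groups did not overlap either (log2 fold change -0.81, SE 0.28, adjusted p = 0.028, edgeR), and its adjusted p lay between 0.060 and 0.124 without sgCtrl replicate 1 or 2 or sgNF2-1 replicate 1 or 2.

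Both tested H4 genes of 15 fell, beside 16.6% of all tested genes called lower. *HIST1H4I* (ENSG00000276180, chromosome 6, 27138588 to 27139881) had 22.9, 22.2 and 24.6 CPM in sgCtrl and 13.2, 11.2 and 12.6 CPM in sgNF2-1. The groups were tight and far apart, with a log2 fold change of -0.91 (SE 0.12, adjusted p = 2.5e-06, edgeR). *HIST1H4H* (ENSG00000158406, chromosome 6, 26277609 to 26285638) had 3.87, 2.86 and 2.11 CPM in sgCtrl and 1.65, 1.23 and 1.19 CPM in sgNF2-1. The sgCtrl libraries were spread more widely than the sgNF2-1 libraries, without overlap (log2 fold change -1.11, SE 0.32, adjusted p = 0.0087, edgeR), and the adjusted p was 0.075 without sgCtrl replicate 1.

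**Figure D2:**
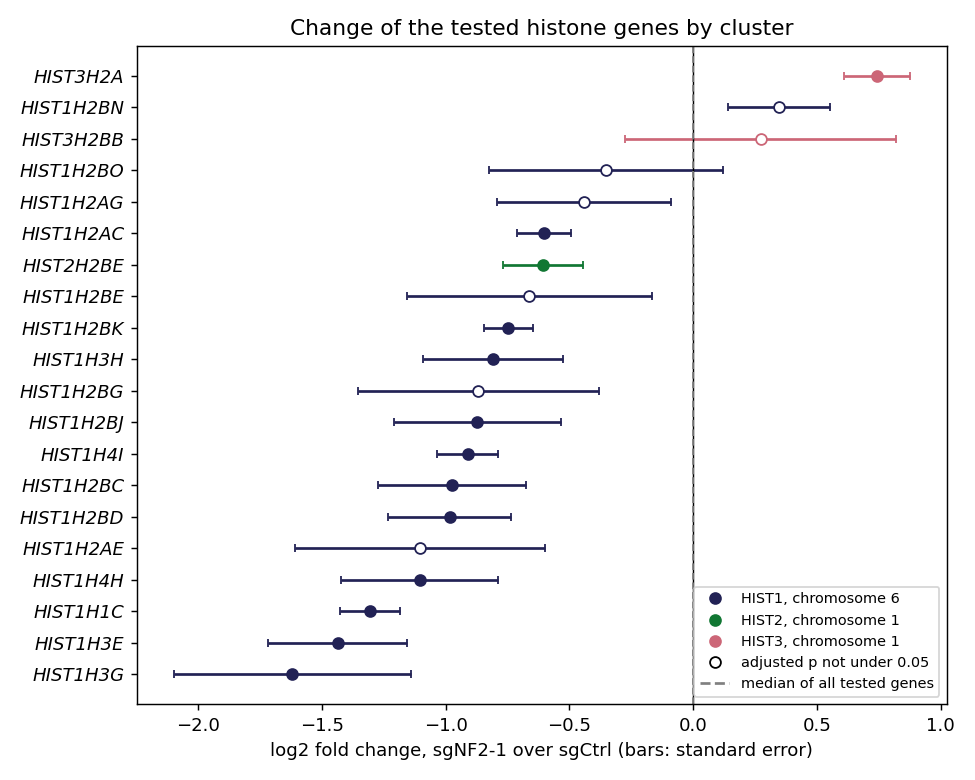
Fitted log2 fold change of the 20 tested histone genes, sgNF2-1 over sgCtrl, with its standard error as bars. Filled points passed an adjusted p of 0.05 and open points did not, colors mark the cluster, and the dashed line at about zero is the median of all tested genes. The 12 filled points on the left are 11 HIST1 genes and *HIST2H2BE*, and the filled point on the right is *HIST3H2A*.

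For genes described alone, the two-sided exact permutation test over libraries cannot go below p = 0.10 with 3 libraries against 3, and each gene whose groups did not overlap reached that value. For the 7 genes that did not pass edgeR's threshold, the standard errors ranged up to 0.55 on the log2 scale, so changes of the size seen in *HIST1H2AC* were not detectable for the low genes.

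The order of the levels was read from FPKM, which the authors deposited and which scales each count by gene length and sequencing depth, since only a level per length compares different genes. Over the 6 libraries, *HIST1H2BK* came first with a mean of 130.6 FPKM, followed by *HIST1H1C* (33.6 FPKM), *HIST3H2A* (18.0 FPKM), *HIST1H2AC* (17.5 FPKM) and *HIST1H4I* (12.99 FPKM). From *HIST1H2BD* (4.87 FPKM) down, all tested genes were under 5 FPKM, and *HIST3H2BB* was last with 0.21 FPKM. The gene lengths used for *HIST1H2BK* (381 bases) and *HIST1H1C* (642 bases) cover the coding sequence only, whereas *HIST3H2A* was counted over 895 bases.

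The order of *HIST3H2A* and *HIST1H2AC* differed between the groups. In sgCtrl, *HIST1H2AC* was at 21.2 ± 2.21 FPKM and *HIST3H2A* at 13.6 ± 1.99 FPKM (SD, n = 3). In sgNF2-1, *HIST1H2AC* was at 13.8 ± 0.819 FPKM and *HIST3H2A* at 22.5 ± 2.05 FPKM (SD, n = 3). *HIST1H1C*, well above both in sgCtrl with 47.9 ± 2.57 FPKM, was at 19.2 ± 2.71 FPKM in sgNF2-1 (SD, n = 3).

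The clusters were next compared as sums over all their genes, tested or not, which are given as descriptions without a test. The 55 HIST1 genes summed to 183, 193 and 219 CPM in sgCtrl and 114, 111 and 118 CPM in sgNF2-1. No sgNF2-1 library reached the sgCtrl range, and the means of 198.0 ± 18.6 and 114.6 ± 3.30 CPM (SD, n = 3) differed by -0.79 on the log2 scale. Leaving out *HIST1H2BK* changed this difference little, to -0.81. The 12 HIST2 genes summed to 10.0, 13.1 and 11.9 CPM in sgCtrl and 7.05, 7.52 and 8.43 CPM in sgNF2-1. This was a log2 difference of -0.60, also without overlap. Without *HIST2H2BE* the 11 others had 18, 39 and 29 counts in sgCtrl and 22, 10 and 23 in sgNF2-1, a similar log2 difference of -0.66 on few counts, and the groups overlapped. The 3 HIST3 genes summed to 13.8, 11.1 and 15.4 CPM in sgCtrl and 21.1, 20.5 and 24.4 CPM in sgNF2-1. All sgNF2-1 values were higher, a log2 difference of 0.72, and *HIST3H2A* accounted for it, since the other HIST3 genes together had 13, 4 and 11 counts in sgCtrl and 14, 4 and 10 in sgNF2-1.

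**Figure D3:**
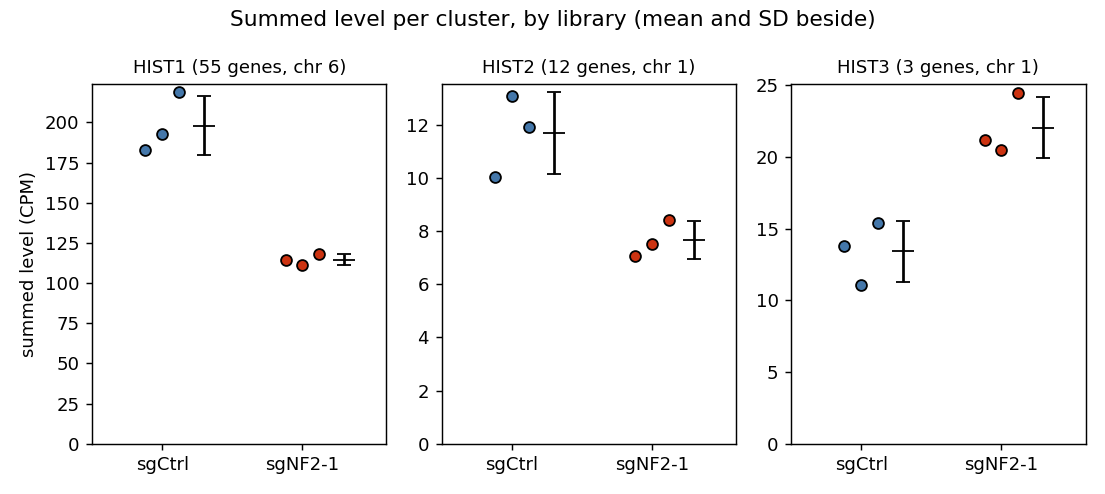
Summed CPM of all genes of the HIST1, HIST2 and HIST3 clusters in each library, on linear axes from 0 that differ between the panels. Colored points are libraries, and the bar beside them is the mean with its SD (n = 3). HIST1 and HIST2 sums were lower in every sgNF2-1 library and HIST3 sums were higher.

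Taken as 1 group, the 16 HIST2, HIST3 and HIST4 genes summed to 25.1, 25.2 and 27.7 CPM in sgCtrl and 28.8, 28.3 and 32.9 CPM in sgNF2-1, a log2 difference of 0.20. The groups did not overlap, but the direction rested on 1 gene: without *HIST3H2A* the means were 13.2 and 8.55 CPM, a log2 difference of -0.62. The ratio of the HIST1 sum to the sum outside HIST1 was 7.29, 7.64 and 7.90 in sgCtrl and 3.98, 3.93 and 3.59 in sgNF2-1, and this ratio does not depend on how the libraries are scaled. With *HIST1H2BK* and *HIST3H2A* left out, the ratio was 10.4, 8.73 and 11.1 in sgCtrl and 8.93, 9.05 and 8.48 in sgNF2-1, and the groups overlapped. By calls, 11 of 17 tested HIST1 genes were lower and 0 higher, beside 16.6% and 17.7% of all tested genes. The 3 tested genes outside HIST1 were 1 lower, 1 higher and 1 not called. With so few genes outside chromosome 6, no difference between the clusters was tested.

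Within chromosome 6, the HIST1 genes lie in 3 blocks. The left block (25726132 to 26285638) held 34 genes, of which 10 were tested and 7 fell, with a median log2 fold change of -1.04. The middle block (27125897 to 27147515) held 5 genes, of which 4 were tested and 3 fell (median -0.81). The right block (27807444 to 27893843) held 16 genes, of which 3 were tested and 1 fell (median -0.35). Genes were called lower in each block, beside 16.6% of all tested genes. Some left-block genes, among them *HIST1H3G* and *HIST1H2AE*, reached 10 counts in every sgCtrl library but not in every sgNF2-1 library. The block medians therefore describe tested genes only, and no difference between blocks was tested. Of the 14 tested genes inside the span of the cluster that are not among the 71, 6 were lower and 1 higher, beside 16.6% and 17.7% of all tested genes. Their median log2 fold change was -0.27, and that of the 12 protein-coding genes among them, which include the same calls in number, was -0.46.

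Many H2A and H2B genes are arranged head to head and share the sequence between their starts. Among the 71 genes, 12 divergent pairs lay within 1000 bases, nearly all an H2A with an H2B gene, and *HIST1H2BO* was counted with both *HIST1H3J* and *HIST1H2AM*. In 4 pairs both genes were tested. *HIST1H2BC* and *HIST1H2AC*, 218 bases apart, both fell. *HIST1H2BJ* fell while *HIST1H2AG*, 291 bases away, did not pass the threshold, and neither gene of the pair *HIST1H2BG* and *HIST1H2AE* passed it. *HIST3H2A* rose while *HIST3H2BB*, 233 bases away, did not pass the threshold. The genes of a pair could differ widely in count. *HIST1H2BK* had 4982 counts over the 6 libraries and its partner *HIST1H2AH* had 1. *HIST2H2BE* had 773 and its partner *HIST2H2AC* had 17.

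The annotated 3′ ends bear on what the libraries could capture. In 23 of the 71 genes, a GENCODE transcript had the poly(A) signal AATAAA or ATTAAA within its last 40 bases, against 80.7% of protein-coding genes. These 23 genes had a median of 74 counts over the 6 libraries and 13 were tested, while the other 48 had a median of 4 counts and 7 were tested. The counts are not scaled by length, and annotated length also differs between these genes. The part of length in this difference was not tested. Of the 32 genes with an annotated stem-loop, 16 were tested, and 22 of the 32 also had a poly(A) signal. In 34 genes the annotated transcripts ended at the stop codon, so neither element could be seen and reads past the coding sequence were not counted, and 3 of these, *HIST1H2BK*, *HIST1H1C* and *HIST1H2BO*, were tested. The stem-loop of *HIST1H2AC*, shown above, ends 1128 bases before the end of its annotated transcript and that of *HIST1H4I* 212 bases before, so these annotated transcripts run past the stem-loop.

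Genes called lower were found with and without these features in the annotation. Of the 13 tested genes with an annotated poly(A) signal, 9 were lower and 1 higher. Of the 7 without, 3 were lower and 0 higher. These 7 include the 3 tested genes whose annotated transcripts end at the stop codon, where a signal could not be seen. Of those 3, *HIST1H2BK* and *HIST1H1C* were lower, so whether they lack a signal is not known. Of the 12 tested genes with a table length above 1000 bases, 7 were lower, and of the 8 shorter ones, 5 were lower and 1 higher. The shares over all tested genes were 16.6% lower and 17.7% higher. A further 15 genes shared more than 50% of their 100-base windows with another gene, including *HIST2H2AA3* with *HIST2H2AA4* and *HIST2H4A* with *HIST2H4B*. None of them was tested, none had more than 46 counts in total, and the handling of multi-mapping reads is not given, so their low counts are uncertain.

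RNAs that carry no poly(A) tail were listed beside the histone genes because their capture also depends on the selection step. Of 17 such RNAs listed, among them *RN7SK*, *RMRP*, *RPPH1* and *TERC*, only *RN7SL2*, an RNA of the signal recognition particle, was abundant enough to test, and 14 rows of the table for this list were at 0 in all libraries. *RN7SL2* had 70.8, 80.7 and 8.11 CPM in sgCtrl and 13.8, 11.4 and 12.4 CPM in sgNF2-1. The first and second sgCtrl libraries were high, while the third was below all sgNF2-1 libraries. The rows for *RMRP* overlap each other (chromosome 9, 35657751 to 35658018 and 35657754 to 35658017). How shared reads were counted is not given, so the values of 0 for *RMRP* are uncertain. The part of such RNAs, or of capture, in the histone results was not tested.

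Promoters are shown for the gene with the strongest evidence of decrease, the most abundant gene and the gene that rose. RefSeq promoters (GRCh38.p14) were matched for 61 of the 71 genes, and the 250 bases before the annotated start were searched on both strands for short letter motifs. The letters CCAAT were present in 83.6% of the histone promoters, against 32% of 35116 promoters of all genes. TATAAA was present in 67.2% against 10.7%, and the octamer ATTTGCAT in 34.4% against 1.63%. The octamer was concentrated in H2A and H2B promoters, 20 of 29, and AAACACA, the core of the H1 box, was in 6 of 6 H1 promoters and in none of the others, against 4.82% of all promoters. The letters GGAATG, the core bound by TEAD factors, were present in 4 of 61 histone promoters (6.56%) against 11.9% of all promoters.

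In the sequences, capitals mark matches on either strand to the CCAAT box, the TATA box, the octamer or the H1 box letters, and a match on the opposite strand appears as its reverse complement. The *HIST1H1C* promoter lies at chr6:26056471-26056720, that of *HIST1H2BK* at chr6:27146859-27147108 and that of *HIST3H2A* at chr1:228457874-228458123, all on the minus strand.
HIST1H1C promoter: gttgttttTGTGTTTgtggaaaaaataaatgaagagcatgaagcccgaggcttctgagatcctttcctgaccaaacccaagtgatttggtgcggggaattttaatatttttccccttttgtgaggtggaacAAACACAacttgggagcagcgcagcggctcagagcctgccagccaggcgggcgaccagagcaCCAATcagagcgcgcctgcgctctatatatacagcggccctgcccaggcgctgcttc
HIST1H2BK promoter: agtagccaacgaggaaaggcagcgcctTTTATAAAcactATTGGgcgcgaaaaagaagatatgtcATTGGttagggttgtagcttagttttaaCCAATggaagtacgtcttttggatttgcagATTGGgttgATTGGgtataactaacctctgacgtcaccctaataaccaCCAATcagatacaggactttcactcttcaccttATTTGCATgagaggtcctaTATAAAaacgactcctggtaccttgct
HIST3H2A promoter: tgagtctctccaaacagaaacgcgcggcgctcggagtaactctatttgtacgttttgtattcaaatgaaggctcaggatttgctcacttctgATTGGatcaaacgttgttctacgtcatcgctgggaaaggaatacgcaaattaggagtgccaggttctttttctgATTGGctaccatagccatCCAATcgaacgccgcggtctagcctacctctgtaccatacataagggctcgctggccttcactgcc
The *HIST1H1C* promoter held the H1 box letters 119 bases and CCAAT 57 bases before the start. The *HIST1H2BK* promoter held the octamer 46 bases and TATAAA 27 bases before the start, together with 6 CCAAT matches. The *HIST3H2A* promoter held 3 CCAAT matches, but neither TATAAA nor the octamer was found in these 250 bases, which says only that those letters are not in this window.

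Genes related to histone supply were counted by list. The 12 replication-independent histone genes are not among the 71 and encode variants, most of them from polyadenylated mRNAs, although *H2AFX* also yields an mRNA that ends at a stem-loop. Of these 12, *H2AFJ* (chromosome 12, 14774383 to 14778002) lies near *HIST4H4* (14767999 to 14771131). Of 11 tested, 2 rose and 3 fell, with a median log2 fold change of -0.11, beside 17.7% of all tested genes higher and 16.6% lower. The linker histone genes *H1FX* (0.38, SE 0.10, adjusted p = 0.0036, edgeR) and *H1F0* (0.32, SE 0.10, adjusted p = 0.016, edgeR) had higher levels in sgNF2-1 on the log2 scale, while the clustered linker gene *HIST1H1C* had fallen. *H3F3A*, which encodes H3.3, fell by 0.24 on the log2 scale, *H2AFJ* fell by 0.43 and the macroH2A gene *H2AFY2* fell by 0.85. *H3F3B* (0.17), *H2AFZ* (-0.07) and *H2AFX* (-0.15) did not pass the threshold.

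Of 14 genes for histone gene transcription, 3′ end processing and decay, all tested, 3 rose and 2 fell, with a median log2 fold change of 0.16. These counts were close to the shares of all tested genes, 17.7% higher and 16.6% lower, so the values below describe single genes. The stem-loop binding protein gene *SLBP* was at 131 ± 5.16 CPM in sgCtrl and 122 ± 4.17 CPM in sgNF2-1 (SD, n = 3), a log2 fold change of -0.11 that did not pass the threshold (SE 0.08, adjusted p = 0.31, edgeR). *NPAT* (-0.21), and the U7 snRNP protein genes *LSM10* (0.15) and *LSM11* (0.04), did not pass it either. *CASP8AP2*, whose protein is a component of histone locus bodies, fell by 0.45, and *ERI1*, which encodes an exonuclease that trims histone mRNA ends, fell by 0.36. The genes that rose were the H4 promoter factor *HINFP* (0.44), the cleavage factor *CSTF2* (0.38) and the RNA helicase *UPF1* (0.31), which acts in histone mRNA decay.

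Of 19 histone chaperone genes, 18 were tested, 7 fell and 1 rose, with a median log2 fold change of -0.12, where 16.6% of all tested genes were lower and 17.7% higher. *NASP*, which encodes a chaperone of soluble H3 and H4, fell by 0.55, and the chromatin assembly subunit *CHAF1A* fell by 0.35. *HAT1* (-0.43), *ANP32E* (-0.41), *RBBP4* (-0.30), *ASF1B* (-0.26) and *NAP1L4* (-0.22) also fell, and the FACT subunit *SSRP1* rose by 0.26 on the log2 scale.

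S phase genes moved in the same direction as most clustered histone genes. Of 23 tested, 16 fell and 1, *MCM7* (0.38), rose, with a median log2 fold change of -0.35, beside the 16.6% of all tested genes called lower. The replication clamp gene *PCNA* was at 155 ± 6.74 CPM in sgCtrl and 85.3 ± 5.00 CPM in sgNF2-1 (SD, n = 3), a log2 fold change of -0.86 (SE 0.08, adjusted p = 1.2e-08, edgeR). *CCNE2* (cyclin E2) had a log2 fold change of -1.25, *RRM2* (ribonucleotide reductase) of -0.61 and *E2F1* of -0.60. The sum over the 23 genes ranged from 1423 to 1495 CPM in sgCtrl and from 1195 to 1271 CPM in sgNF2-1. The part of these genes in the histone result was not tested.

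**Figure D4:**
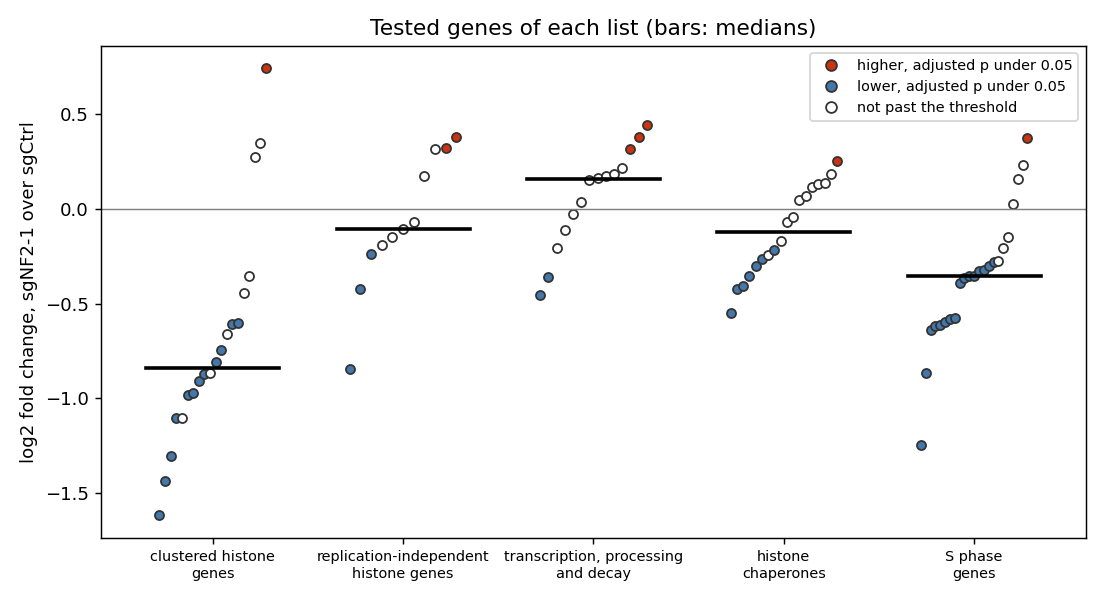
Log2 fold change, sgNF2-1 over sgCtrl, of the tested clustered histone genes and of the tested genes of 4 related lists, sorted within each list. Red points were higher and blue points lower at an adjusted p under 0.05, open points did not pass, and horizontal bars are medians. The medians were -0.84 for the clustered histone genes, -0.11, 0.16 and -0.12 for the next 3 lists and -0.35 for the S phase genes.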

How the data were processed

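The authors deposited unnormalized read counts per gene and FPKM values for the 6 libraries. Per the labels, 1 µg of total RNA per sample entered NEBNext Ultra libraries, and the submitters' processing notes name HISAT2, StringTie 1.3.3b, featureCounts 1.5.0-p3 and hg38. Selection of poly(A) RNA, strand setting and handling of multi-mapping reads are not given in the sources used here. Group and replicate number were taken from the sample titles.

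Genes were kept by filterByExpr at a minimum count of 10 and a minimum total of 15 (14179 genes), and their counts were scaled by TMM and tested with the quasi-likelihood test of edgeR 4.0.16 in R 4.3.3, sgNF2-1 against sgCtrl. Benjamini-Hochberg adjustment covered all tested genes, with calls at an adjusted p under 0.05, whereas the study's methods name DESeq2 with a log2 fold change limit of 0.5. Alternatives used DESeq2 1.42.0, other scalings, filters and limits, limma 3.58.1 on log2(FPKM + 1) or log2(FPKM + 0.1), and each library left out. The fits were tested on simulated counts.

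Full values were given for the 10 tested histone genes with the highest mean FPKM, the 5 largest called changes in each direction (1 was called higher) and every tested gene outside HIST1. The other tested histone genes are given with fewer values, and *HIST4H4*, *HIST1H1B*, *HIST1H1E* and the genes of divergent pairs were named after their values were seen. In the lists, called genes and those central to histone supply were eligible. The histone genes, lists and tests were chosen with earlier results of these data known. Coordinates are those of the deposited table, and all 71 genes have the same start and end in GENCODE release 29. Stem-loops, poly(A) signals and shared 100-base windows were read from its transcripts, and promoters from RefSeq. Totals of 14782423 to 17416463 counts per library make 3 counts, the most that a count of 0 allows, a level of at most 0.203 CPM, and such limits cover counting error only.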

Additional observations from a re-analysis of the deposited data

How the results depend on the processing

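Counts of called histone genes changed little: 11 lower and 1 higher with DESeq2, 12 and 1 with the replicate block, 9 to 11 lower and 1 higher without any 1 library. Limma on unfiltered FPKM called 7 lower. Over all genes that setting called 1277 higher and 1266 lower, the study's limits 1308 and 1531, an adjusted p with the fold limit 1194 and 1322, the replicate block 2698 and 2501, and fits without 1 library 2016 to 2514 higher and 1880 to 2271 lower. The numbers do not pair the libraries (correlations of same-numbered libraries -0.03, 0.06 and 0.05). In summed FPKM, the log2 difference outside HIST1 was 0.38 and that of the HIST1 ratio -1.22. Without the top gene of each cluster group they were -0.62 and -0.18. The top gene outside HIST1 is *HIST3H2A*. Leaving it out alone, an alternative added after the data were seen, is therefore the same calculation for the first value. *HIST3H2BB* turned from 0.27 to -0.058 without sgCtrl replicate 2 and -0.033 without sgNF2-1 replicate 1, and was 0.62 without sgNF2-1 replicate 2. For genes called lower, 155 refits kept the call and 22 lost it without changing direction, 8 of them for *HIST1H2BJ* (DESeq2 adjusted p = 0.063). The causes were not tested. Some settings filter out low histone genes and gave no value for them. With 51 of 71 genes at no more than 20 counts in any library, depth and capture limit what could be seen.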
